A study of Mus musculus with 9 samples.

Results

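The genes described here are the 45 genes of the DNA replication machinery, measured in 8-cell mouse embryos after knockdown of MFN1 or of histone H3.3. They were chosen by gene symbol from the 55335 entries of each library, and all 45 were found. They comprise the 6 genes of the MCM helicase, the 6 genes of the origin recognition complex, 3 genes that load the helicase or block its loading, 8 genes that activate it, 9 polymerase and primase genes, 6 genes of the sliding clamp and its loader, 3 genes of the single-strand binding complex RPA, 2 genes of Okazaki fragment maturation and 2 genes of fork protection. The rule reads the symbols and no measured value, although the list was chosen with earlier results of these data known.

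Replication starts from origins that are licensed before S phase. The origin recognition complex (ORC) binds DNA and, with CDC6 and CDT1, loads the ring-shaped MCM helicase, while geminin binds CDT1 and prevents a second loading in the same cycle. The kinase DBF4-CDC7, CDC45, the GINS complex and MCM10 then turn the loaded ring into a moving helicase, polymerase alpha with primase lays down primers, polymerases delta and epsilon extend them, and PCNA, the clamp loader RFC, RPA, FEN1 and LIG1 serve the fork behind it. Cleavage embryos divide without growing and replicate their whole genome in each cycle, at first from proteins and transcripts that the oocyte stored. Many genes of this machinery are classical targets of E2F transcription factors in other cells.

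The series asked what the transcriptome of 8-cell embryos looks like when MFN1, a GTPase that fuses mitochondrial outer membranes, or H3.3, the histone H3 variant placed on DNA independently of replication, is depleted. Zygotes obtained by in vitro fertilisation with ICR mouse gametes received siRNA by cytoplasmic injection and were cultured to the 8-cell stage. Nontargeting siRNA defines control, siRNA against *Mfn1* defines MFN1-KD, and siRNA against *H3f3a* together with *H3f3b*, the genes that encode H3.3, defines H3.3-KD. Each of the 3 groups had 3 libraries, so n = 3 per group throughout and the same controls serve both comparisons. Each library is a pool of embryos, for which the labels give 5 to 10 and the study's methods 10 per group, and an injection at the zygote stage leaves protein already made by the oocyte in place. The study calls the libraries biological replicates without naming what separates them, so a p-value here measures the spread between these libraries. A pool gives the RNA of all its cells together, so fewer cells in a pool, or in one phase of the cycle, cannot be told apart from less RNA per cell.

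Levels are FPKM (sequenced fragments divided by gene length and by the library's total) as deposited, a scale that already divides by gene length. Fold changes are differences of log2(FPKM + 1) and understate the change of genes near 1 FPKM. All 13011 genes that averaged 1 FPKM or more were fitted together in limma, and all 45 replication genes passed that filter. A gene is called changed where its Benjamini-Hochberg adjusted p, over all genes tested, is under 0.05. *Mfn1* stood at 15.4% of its control mean in MFN1-KD, and *H3f3a* and *H3f3b* stood at 7.72% and 8.24% in H3.3-KD. Read depth is unknown. The number of genes above 0 FPKM was 21643 to 22507 in control and 23655 to 24820 in H3.3-KD, whereas MFN1-KD had 15577 to 20842, with replicate 3 the lowest of all libraries. For all genes the median log2 fold change was 0.26 under H3.3-KD and -0.08 under MFN1-KD. Scaling the libraries by median ratios moved the former to -0.00, so medians of gene groups are given relative to all genes. Of 7 preimplantation embryo markers, control embryos had 6 at a mean of 1 FPKM or more, H3.3-KD embryos 7 and MFN1-KD embryos 5. Of 7 cumulus and granulosa markers, 1 reached that mean in each group, and *Fshr* was listed at 0 in all libraries. The summed level of that list was 16.1 to 29.8 FPKM across control, 38.2 to 66.9 FPKM under H3.3-KD and 10.2 to 19.9 FPKM under MFN1-KD, and its part in the results was not tested.

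In control 8-cell embryos the replication genes were well expressed but far from even. Their median was 31.4 FPKM, against 6.43 FPKM over all genes tested, and 27 of the 45 lay in the top 25% of genes. The embryos held most transcript of *Gmnn* (geminin, the inhibitor of CDT1; 556 ± 80.2 FPKM) and of *Tipin* (the partner of TIMELESS in the complex that steadies paused forks; 551 ± 128 FPKM). These stood apart from the third gene, *Orc6*, an ORC subunit (218 ± 28.2 FPKM). Next came *Orc4*, *Gins4*, *Gins1*, *Rfc4* and *Rpa2*, so that 8 genes exceeded 100 FPKM. Another 32 lay between 10 and 100 FPKM. The 5 genes under 10 FPKM were *Cdc7*, *Pola2*, *Rpa1*, *Fen1* and *Gins2*, the last at 4.80, 3.03 and 2.67 FPKM in the control libraries. The order within this range is loose, since 41 of the 44 neighbouring pairs overlap between their control libraries, and the gaps follow only *Tipin*, *Gins4* and *Pcna*. Subunits of one complex did not share one level. In ORC the control means ran from 13.1 FPKM for *Orc3* to 218 FPKM for *Orc6* and in RPA from 6.28 FPKM for *Rpa1* to 108 FPKM for *Rpa2*. The MCM genes ran from 15.0 FPKM for *Mcm2* to 56.7 FPKM for *Mcm6*. The median coefficient of variation of the 45 genes between libraries was 18.5% for control, 17.9% for H3.3-KD and 25.5% for MFN1-KD.

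**Figure D1:**
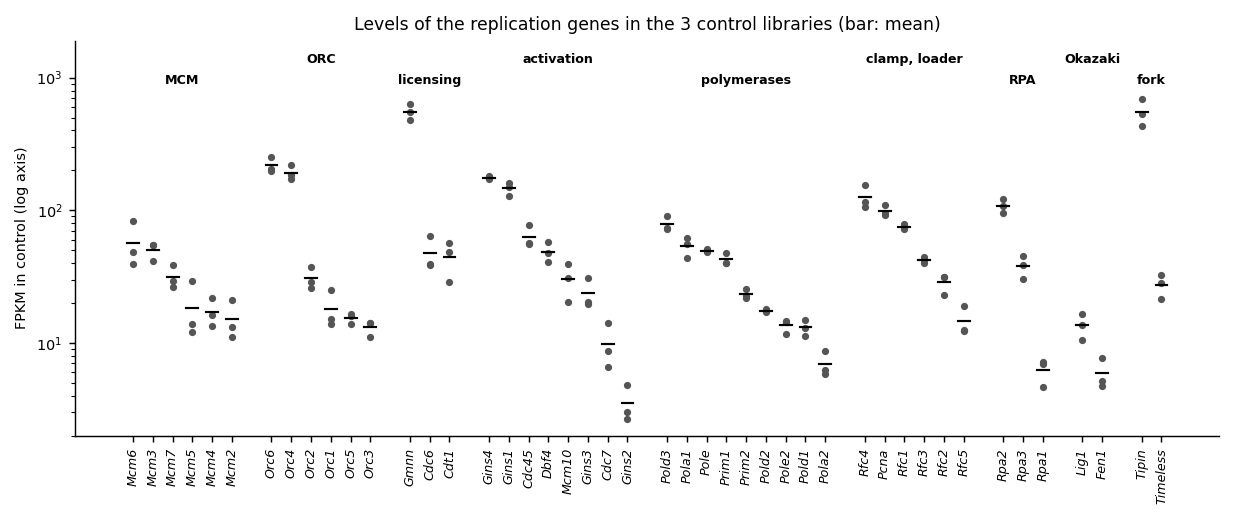
FPKM of each replication gene in the 3 control libraries on a log axis, genes grouped by role and ordered by mean within a role, with points for libraries and bars for means. *Gmnn* and *Tipin* stand above all others, and the subunits of ORC, GINS and RPA spread widely.

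Promoters were compared for the short words that E2F factors are known to bind, since these genes are classical targets. The words searched were TTTCCCGC, TTTGGCGC, TTTCGCGC and TTTGCCGC, on both strands, in RefSeq windows (GRCm38.p6) that run from 250 bases before to 50 bases after each annotated start. Windows were at hand for 36 of the 45 genes, all but *Pole*, *Tipin*, *Rfc2*, *Gins2*, *Prim2*, *Mcm4*, *Gins1*, *Gins4* and *Gmnn*. At least 1 word was in a window of 15 of these 36 genes (41.7%), against 4.81% of the 8421 genes tested that have a window and 2.6% of all 27025 genes with one. The 15 genes were *Cdc6*, *Cdt1*, *Orc1*, *Orc3*, *Mcm3*, *Mcm5*, *Mcm6*, *Mcm7*, *Gins3*, *Pola1*, *Pold1*, *Pold3*, *Pole2*, *Rfc3* and *Lig1*. The word CCAAT, bound by NF-Y, was in 21 of the 36 (58.3%), against 43.7% of the genes tested and 41.1% of all. A match is a description of letters and not a measured site. The windows printed here belong to 3 helicase-loading genes that rose in H3.3-KD and each hold an E2F word, and to *Pola1* and *Rfc4*, which fell, the first with a word and the second with none. They read 5′ to 3′ on the gene's strand, with the E2F words of either orientation in capitals.
Cdc6 (chr11:98907901-98908200, plus strand): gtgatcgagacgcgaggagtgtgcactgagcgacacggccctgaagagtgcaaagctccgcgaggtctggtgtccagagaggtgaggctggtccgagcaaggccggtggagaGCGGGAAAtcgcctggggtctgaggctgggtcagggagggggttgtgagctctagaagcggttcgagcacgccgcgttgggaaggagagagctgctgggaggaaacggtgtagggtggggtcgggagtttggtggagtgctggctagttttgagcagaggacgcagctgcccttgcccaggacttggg
Cdt1 (chr8:122567765-122568064, plus strand): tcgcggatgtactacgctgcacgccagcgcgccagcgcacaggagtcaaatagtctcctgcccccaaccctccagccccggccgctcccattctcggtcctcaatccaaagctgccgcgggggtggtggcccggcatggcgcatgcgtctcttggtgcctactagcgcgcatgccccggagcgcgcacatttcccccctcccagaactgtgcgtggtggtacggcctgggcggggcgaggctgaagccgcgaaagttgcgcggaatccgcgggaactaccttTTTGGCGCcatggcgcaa
Orc1 (chr4:108579204-108579503, plus strand): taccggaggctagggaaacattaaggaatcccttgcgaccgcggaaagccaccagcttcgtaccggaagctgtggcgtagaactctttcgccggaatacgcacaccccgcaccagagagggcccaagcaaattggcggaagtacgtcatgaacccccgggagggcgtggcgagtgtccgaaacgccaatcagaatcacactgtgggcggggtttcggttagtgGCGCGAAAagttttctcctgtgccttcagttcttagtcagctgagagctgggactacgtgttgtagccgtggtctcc
Pola1 (chrX:93632106-93632405, minus strand): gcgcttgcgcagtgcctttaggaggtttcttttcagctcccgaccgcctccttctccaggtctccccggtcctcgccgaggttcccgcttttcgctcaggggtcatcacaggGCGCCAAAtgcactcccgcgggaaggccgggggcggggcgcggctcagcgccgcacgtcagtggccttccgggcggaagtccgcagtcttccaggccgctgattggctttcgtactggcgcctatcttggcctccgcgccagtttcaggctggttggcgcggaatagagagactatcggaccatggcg
Rfc4 (chr16:23127681-23127980, minus strand): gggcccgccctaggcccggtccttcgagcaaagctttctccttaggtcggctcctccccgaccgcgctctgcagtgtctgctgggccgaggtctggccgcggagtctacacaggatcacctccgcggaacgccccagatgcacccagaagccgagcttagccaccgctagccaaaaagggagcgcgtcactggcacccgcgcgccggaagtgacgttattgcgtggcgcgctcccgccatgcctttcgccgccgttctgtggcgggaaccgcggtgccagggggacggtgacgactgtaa

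In H3.3-KD embryos replication genes changed in both directions, also within one complex. The loading factors *Cdc6* and *Cdt1* rose while *Gmnn*, the gene of the inhibitor of CDT1, fell, and within ORC *Orc1* rose and *Orc4* fell, as *Pola2* rose and *Pola1* fell within polymerase alpha. Of the 45 genes, 9 were higher (20%) and 8 were lower (17.8%) at an adjusted p under 0.05. Over all genes tested the same rule called 21.8% higher and 9.12% lower, so the share of replication genes that rose was near that of all genes, and the share that fell was larger, a difference for which no test was made. The 9 that rose were *Cdt1*, *Cdc6*, *Fen1*, *Orc1*, *Mcm2*, *Mcm7*, *Mcm6*, *Mcm10* and *Pola2*, and the 8 that fell were *Rfc4*, *Gins1*, *Pola1*, *Tipin*, *Orc4*, *Pole*, *Prim1* and *Gmnn*. At the threshold the study used, more than 2-fold with an unadjusted p under 0.05, the same 9 genes were upregulated (23.9% of all genes tested were) and 6 of the 8 were downregulated (9.39% of all), without *Gmnn* and *Prim1*. Every H3.3-KD library lay above every control library for 13 genes (28.9%, against 34.5% of all genes) and below for 14 (31.1%, against 18.9%). The median log2 fold change of the 45 was -0.36 relative to all genes. Scaling moved the balance. With median-ratio factors 7 were higher and 13 lower, and with upper-quartile factors 7 were higher and 14 lower, while over all genes the calls went from 2841 higher and 1187 lower to 2078 and 1778, and to 1888 and 1968. The counts also rested on the controls, since leaving out control replicate 2 left 5 genes higher and 5 lower, and leaving out control replicate 3 left 5 and 4. Over all genes the calls dropped as well without these libraries, to 1841 higher and 708 lower and to 1763 and 669. *Mcm7*, *Orc1*, *Cdc6*, *Cdt1*, *Gins1*, *Pola1* and *Rfc4* were called in each of the 18 alternatives tried. Their partners named above held less firmly. The call of *Pola2* was lost in 11 of the 18 and that of *Gmnn* in 3. *Orc4* lost its call in 1, the removal of the trend over GC content and transcript length.

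MFN1-KD embryos had few calls in these genes, as they had over all genes tested. None of the 45 was higher and 2 were lower (4.44%), *Rpa2* and *Tipin*, at an adjusted p under 0.05 in limma, where 1.15% of all genes tested were higher and 2.2% lower. At an unadjusted p under 0.05, 7 of the 45 passed (15.6%), against 23.2% of all genes. At the threshold of the study none was upregulated (5.02% of all genes were) and 3 were downregulated (9.05% of all), with *Prim2* as the additional gene. Every MFN1-KD library lay below every control library for 12 genes (26.7%, against 16.8% of all genes) and above for 1 gene, *Pole2* (2.22%, against 11.4%). Those 12 were *Rpa2*, *Tipin*, *Prim1*, *Prim2*, *Pold3*, *Cdc45*, *Gins1*, *Gins4*, *Orc5*, *Orc6*, *Rfc1* and *Rfc5*. The median of the 45 was 0.05 relative to all genes. Neither call held in every fit. Both were lost, to 0 genes lower, without control replicate 1, 2 or 3 and without H3.3-KD replicate 1 or 2, which enters through the shared estimate of spread, with no filter on low values and in a fit of only the 6 libraries compared. Over all genes the lower calls dropped as well, from 286 to 37, 0 and 0 without control replicate 1, 2 and 3. They were 30 and 1 without H3.3-KD replicate 1 and 2, 2 with no filter and 0 with only the 6 libraries. Without MFN1-KD replicate 3 both *Rpa2* and *Tipin* stayed called.

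**Figure D2:**
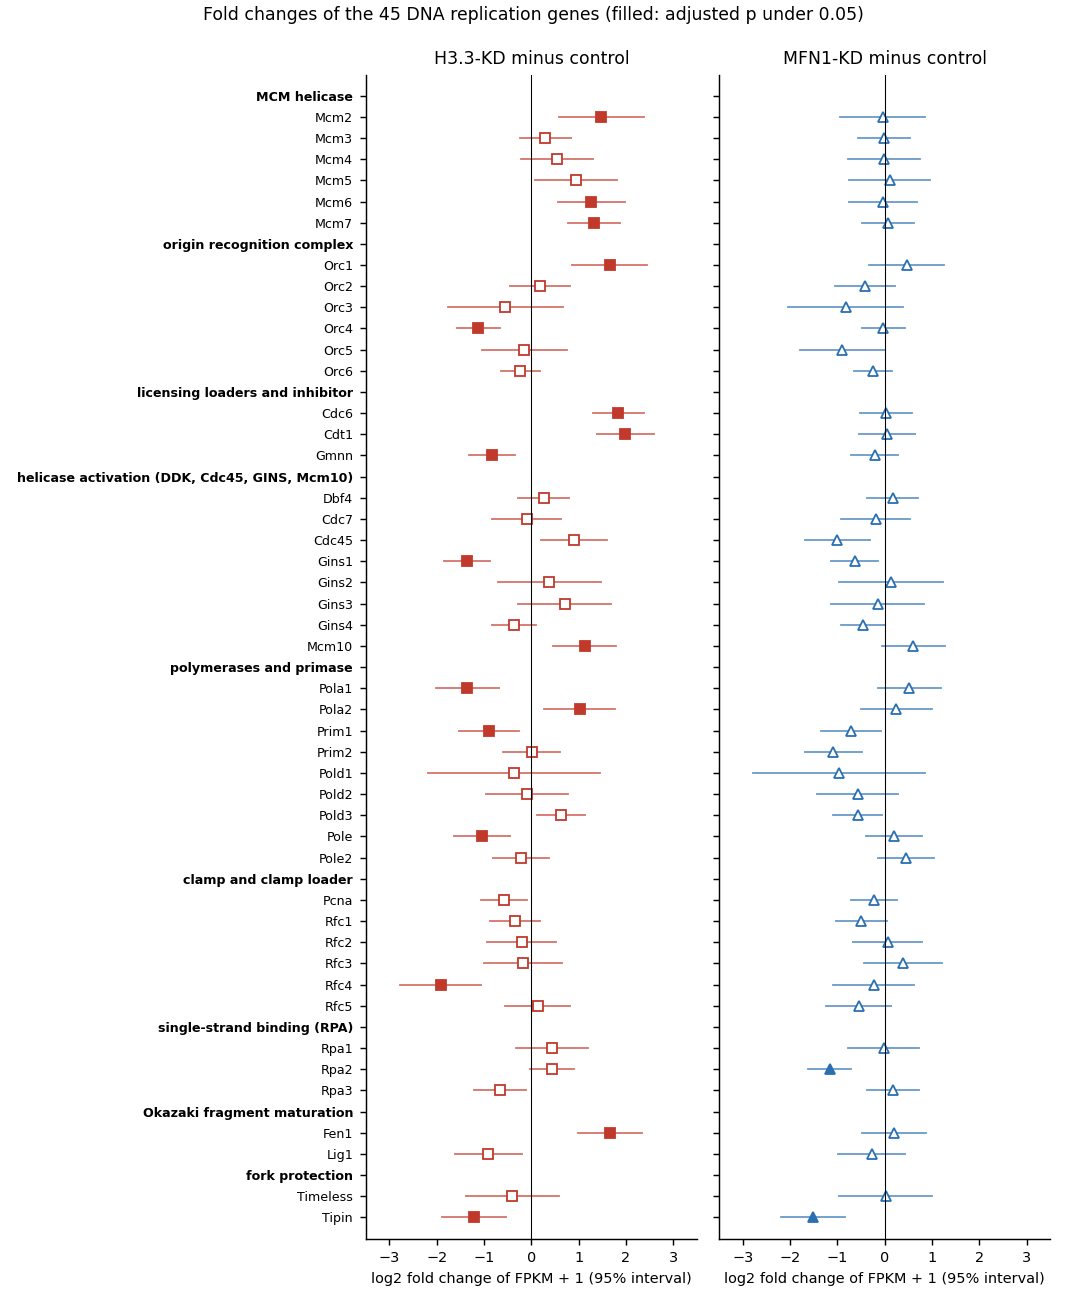
Log2 fold change of FPKM + 1 with its 95% interval for the 45 replication genes by role, H3.3-KD minus control on the left and MFN1-KD minus control on the right, with filled symbols for an adjusted p under 0.05. In H3.3-KD 9 filled symbols lie right and 8 left of 0, and in MFN1-KD the 2 filled symbols, *Rpa2* and *Tipin*, lie left.

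The largest rises in H3.3-KD were those of the factors that load the helicase. CDC6 is the ATPase that joins ORC on DNA, and CDT1 brings the MCM ring to it. *Cdt1* (chr8:122568015-122573554, plus strand) read 57.0, 48.5 and 28.6 FPKM in the control libraries and 168, 157 and 196 FPKM in the H3.3-KD libraries. The groups were far apart, with the H3.3-KD mean 3.89 times the control mean (log2 fold change 1.99 ± 0.27 (SE), adjusted p = 0.000573). *Cdc6* (chr11:98907801-98923940, plus strand) read 63.9, 39.6 and 38.7 FPKM across control and 155, 168 and 178 FPKM under H3.3-KD, again without overlap, 3.53 times the control mean (log2 fold change 1.83 ± 0.24 (SE), adjusted p = 0.000544). Their MFN1-KD libraries read 44.8, 45.9 and 42.4 FPKM for *Cdt1* and 44.3, 44.1 and 53.3 FPKM for *Cdc6*, within the control range for both. The 95% interval of the MFN1-KD log2 fold change was -0.55 to 0.64 for *Cdt1* and -0.51 to 0.57 for *Cdc6*. *Gmnn* (chr13:24751845-24761923, minus strand) encodes geminin, the inhibitor that binds CDT1, and it moved the other way. It read 477, 554 and 637 FPKM across control and 338, 246 and 355 FPKM under H3.3-KD, with all H3.3-KD libraries below all controls (log2 fold change -0.83 ± 0.22 (SE), adjusted p = 0.0167). *Gmnn* in MFN1-KD read 386, 555 and 499.6 FPKM, which overlaps the controls (log2 fold change -0.22, adjusted p = 0.599). The *Gmnn* call was lost without control replicate 2 (adjusted p = 0.0579), control replicate 3 (0.0753) or H3.3-KD replicate 2 (0.0703), and those of *Cdt1* and *Cdc6* held in every alternative.

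Inside each library, the transcript of the inhibitor was set against that of its target, a ratio that does not change with the scaling of a library. *Gmnn* over *Cdt1* was 8.36, 11.4 and 22.3 in control and 2.01, 1.56 and 1.81 in H3.3-KD, so the ratio went from a mean of 14.0 ± 7.33 to 1.80 ± 0.224 with no overlap, and it was 8.63, 12.1 and 11.8 in MFN1-KD, inside the control range. *Gmnn* over *Cdc6* went from 7.45, 14.0 and 16.5 in control to 2.18, 1.46 and 1.99 in H3.3-KD. Subunits of other complexes also parted in H3.3-KD. *Orc4* over *Orc1* was 7.41, 11.5 and 15.9 in control and 2.33, 1.29 and 1.21 in H3.3-KD. *Pola2* over *Pola1*, both of polymerase alpha, was 0.201, 0.0933 and 0.113 in control and 0.847, 0.572 and 0.820 in H3.3-KD. The pairs were chosen with the values of their genes known. Partners also differ in the GC content of their transcripts, such as 54.3% for *Pola2* and 41.8% for *Pola1*. No trend over GC content was taken out of these ratios. With the GC and length trend removed, H3.3-KD log2 fold changes were 0.26 (*Rpa2*), -0.04 (*Rpa3*), 1.21 (*Cdt1*) and -0.96 (*Gmnn*). In MFN1-KD all 3 libraries left the control range for both ratios of *Rpa2*. *Rpa2* over *Rpa3* was 3.97, 2.45 and 2.41 in control, 5.60, 8.03 and 5.37 in H3.3-KD, and 0.895 to 1.36 over the MFN1-KD libraries, above the controls in the one knockdown and below them in the other. Of 18 two-sided exact permutation tests on 9 such ratios, all in H3.3-KD but *Rpa2* over *Rpa1* (p = 0.9) gave p = 0.1, the smallest that 3 libraries against 3 allow, as did both *Rpa2* ratios in MFN1-KD. After Benjamini-Hochberg adjustment over the 18 these exact permutation p-values were 0.18, so none passed.

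**Figure D3:**
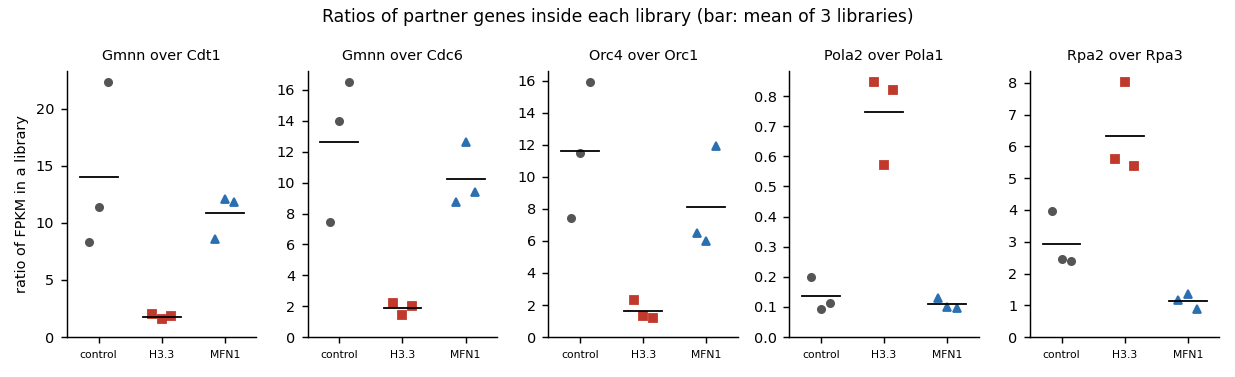
Ratio of the FPKM of partner genes inside each library, on linear axes from 0, for 3 control, 3 H3.3-KD and 3 MFN1-KD libraries per panel, with bars for means. *Gmnn* over *Cdt1* and over *Cdc6* and *Orc4* over *Orc1* are lower and *Pola2* over *Pola1* is higher in every H3.3-KD library than in any control, and *Rpa2* over *Rpa3* lies above the controls in H3.3-KD and below them in MFN1-KD.

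Among the MCM helicase genes 3 of 6 rose in H3.3-KD, *Mcm2*, *Mcm6* and *Mcm7*, and the median of the 6 was 0.84 relative to all genes. Their products form the ring that unwinds DNA ahead of the fork. *Mcm7* (chr5:138164583-138172422, minus strand) read 38.8, 29.2 and 26.2 FPKM across control and 82.4, 64.5 and 92.7 FPKM under H3.3-KD (log2 fold change 1.32 ± 0.25 (SE), adjusted p = 0.00315). *Mcm2* (chr6:88883474-88898780, minus strand), whose protein also carries histones at the fork, read 20.96, 13.1 and 11.0 FPKM across control and 44.4, 51.5 and 32.5 FPKM under H3.3-KD (log2 fold change 1.48 ± 0.41 (SE), adjusted p = 0.0194). *Mcm6* (chr1:128331590-128359664, minus strand), the most abundant MCM transcript in control, read 82.3, 48.2 and 39.5 FPKM there and 139, 122 and 134 FPKM in H3.3-KD (log2 fold change 1.27 ± 0.32 (SE), adjusted p = 0.0139). For these 3 genes all H3.3-KD libraries exceeded all controls. *Mcm3* did not overlap either, at 54.9, 54.5 and 41.8 FPKM across control and 59.2, 66.8 and 58.9 FPKM under H3.3-KD, but its difference was small (log2 fold change 0.29, adjusted p = 0.395). The log2 fold change was 0.94 for *Mcm5* (adjusted p = 0.0897) and 0.54 for *Mcm4* (adjusted p = 0.263), with overlapping libraries for both. In MFN1-KD the 6 genes had log2 fold changes from -0.04 to 0.10, and none was called. In that group *Mcm2* read 16.3, 22.6 and 7.39 FPKM, *Mcm6* 38.5, 77.1 and 48.8 FPKM and *Mcm7* 29.1, 33.7 and 35.6 FPKM. The *Mcm7* libraries lay inside the control range, and *Mcm2* and *Mcm6* each had a library outside it. The H3.3-KD call of *Mcm2* was lost without control replicate 2 (adjusted p = 0.0687), control replicate 3 (0.0842), H3.3-KD replicate 1 (0.0532) or H3.3-KD replicate 2 (0.0727), and that of *Mcm6* without control replicate 2 (0.057) or 3 (0.0668). *Mcm2* also lost it with no filter on low values (0.0601). *Mcm7* shares 64 exon bases with *Cops6* and 321 with *Ap4m1*, both on the opposite strand, and the strand setting of the counting is not given in the sources used here. *Cops6* read 247 FPKM across control and 248 FPKM under H3.3-KD.

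ORC, which marks origins, showed a rise and a fall among its 6 genes in H3.3-KD, and the median of the 6 was -0.45 relative to all genes. ORC1 is the ATPase subunit whose level changes with the cell cycle in other cells. *Orc1* (chr4:108579423-108614833, plus strand) read 24.9, 15.0 and 13.9 FPKM across control and 38.8, 57.2 and 81.9 FPKM under H3.3-KD (log2 fold change 1.65 ± 0.36 (SE), adjusted p = 0.0062). Every H3.3-KD library exceeded every control, and the H3.3-KD libraries differed among themselves more than the controls did, by SDs of 21.6 and 6.04 FPKM. *Orc4* (chr2:48902824-48950277, minus strand), another ATPase-fold subunit, read 184, 173 and 221 FPKM across control and 90.5, 74.0 and 99.3 FPKM under H3.3-KD, 45.7% of the control mean (log2 fold change -1.12 ± 0.20 (SE), adjusted p = 0.0026). In MFN1-KD the libraries of *Orc1* read 29.0, 28.8 and 17.0 FPKM and those of *Orc4* 188, 173 and 202 FPKM, overlapping the controls. *Orc6*, the ORC subunit least like the others and the most abundant in control, read 206, 197 and 250.1 FPKM across control, 202, 175 and 176 FPKM under H3.3-KD and 178, 177 and 193 FPKM under MFN1-KD. All 3 MFN1-KD libraries of *Orc6* lay below the controls, by a small step that did not pass (log2 fold change -0.25, adjusted p = 0.455). *Orc2*, *Orc3* and *Orc5* were not called in either knockdown. *Orc5* in MFN1-KD had a log2 fold change of -0.89 with an adjusted p of 0.219 and no overlap with control, and *Orc3* spread widely, down to 3.87 FPKM in H3.3-KD replicate 3 and 2.44 FPKM in MFN1-KD replicate 3. *Orc4*, whose transcripts have the lowest GC content of the 45 genes (37.3%), lost its call after removal of the trend of each library over GC content and transcript length (adjusted p = 0.0867).

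Of the 8 genes that turn the loaded ring into a helicase, 1 rose and 1 fell in H3.3-KD. *Gins1* (chr2:150905400-150931280, plus strand), a subunit of the GINS complex of the active helicase, read 128, 149 and 162 FPKM across control and 56.7, 57.9 and 52.8 FPKM under H3.3-KD. The H3.3-KD libraries were tightly grouped at 38.2% of the control mean (log2 fold change -1.37 ± 0.22 (SE), adjusted p = 0.00146). MFN1-KD libraries of *Gins1* read 86.2, 118 and 79.2 FPKM, also below all controls, at a step that did not pass (log2 fold change -0.64, adjusted p = 0.125). *Mcm10* (chr2:4989714-5012791, minus strand), which helps the helicase start and binds polymerase alpha, read 39.3, 30.7 and 20.2 FPKM across control and 66.9, 65.3 and 62.0 FPKM under H3.3-KD, without overlap (log2 fold change 1.13 ± 0.30 (SE), adjusted p = 0.0172). In MFN1-KD *Mcm10* read 46.4, 32.4 and 58.8 FPKM, which overlaps the controls (log2 fold change 0.60, adjusted p = 0.264). *Cdc45*, the helicase cofactor that travels with MCM and GINS, read 76.8, 56.5 and 55.4 FPKM across control, 107, 88.9 and 168 FPKM under H3.3-KD and 32.5, 40.6 and 21.7 FPKM under MFN1-KD. Its libraries were above the controls in the one knockdown and below them in the other, and neither difference passed (adjusted p = 0.051 and 0.0977). *Gins4*, the most abundant of these genes in control, read 171, 179.8 and 177 FPKM there, 169.7, 115 and 131 FPKM in H3.3-KD and 119, 146 and 121 FPKM in MFN1-KD, below the controls in both knockdowns by steps that did not pass (adjusted p = 0.216 and 0.226). *Gins2*, *Gins3* and the kinase genes *Cdc7* and *Dbf4* had log2 fold changes from -0.10 to 0.70 under H3.3-KD and between -0.19 and 0.17 under MFN1-KD, with no call. For *Gins3* the H3.3-KD value rests on replicate 3, which read 87.5 FPKM beside 23.8 and 26.7 FPKM. The call of *Mcm10* was lost without control replicate 2 (adjusted p = 0.0507), control replicate 3 (0.0761) or H3.3-KD replicate 2 (0.0522), and with either scaling (0.0975 and 0.115) or without the GC trend (0.132).

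Polymerase alpha with primase makes the primers of every new strand, and its genes did not move together in H3.3-KD. *Pola1* (chrX:93304767-93632155, minus strand), the catalytic subunit, read 43.3, 62.0 and 55.6 FPKM across control and 18.5, 19.4 and 22.8 FPKM under H3.3-KD, 37.7% of the control mean (log2 fold change -1.35 ± 0.30 (SE), adjusted p = 0.00749). *Pola2* (chr19:5940542-5964202, minus strand), the regulatory subunit, went the other way, from 8.72, 5.79 and 6.27 FPKM to 15.6, 11.1 and 18.7 FPKM (log2 fold change 1.02 ± 0.34 (SE), adjusted p = 0.0447). *Prim1* (chr10:128015168-128030037, plus strand), the catalytic subunit of primase, read 40.2, 39.9 and 47.9 FPKM across control and 26.3, 25.4 and 16.3 FPKM under H3.3-KD (log2 fold change -0.91 ± 0.29 (SE), adjusted p = 0.0347). None of these 3 genes overlapped between H3.3-KD and control, whereas *Prim2*, the large primase subunit, read close to control (23.3 ± 1.79 FPKM and 23.5 ± 3.66 FPKM, log2 fold change interval -0.60 to 0.61). In MFN1-KD the primase genes read below every control and the *Pola* genes did not. *Prim2* read 25.3, 21.9 and 22.7 FPKM in control and 9.58, 13.9 and 8.41 FPKM in MFN1-KD, past the threshold of the study but not the adjusted one (log2 fold change -1.09, adjusted p = 0.057). *Prim1* read 27.6, 31.5 and 19.0 FPKM in MFN1-KD (log2 fold change -0.72, adjusted p = 0.169). *Pola1* read 66.0, 56.9 and 120.0 FPKM and *Pola2* 8.58, 5.63 and 11.7 FPKM in MFN1-KD, both overlapping the controls, and the highest *Pola1* value was in replicate 3. The call of *Pola2* was lost without control replicate 2 (adjusted p = 0.148) or 3 (0.131), H3.3-KD replicate 1 (0.108), 2 (0.0508) or 3 (0.13), or MFN1-KD replicate 1 (0.0557), with either scaling (0.187 and 0.217), with no filter on low values (0.0984), with a pseudocount of 0.1 (0.0505) and without the GC trend (0.774). *Prim1* lost its call without control replicate 1 (0.0636), 2 (0.0864) or 3 (0.123), with H3.3-KD replicate 2 (0.0598) or 3 (0.103) left out, and with no filter on low values (0.0817).

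The polymerases that extend primers differed in H3.3-KD as well. *Pole* (chr5:110286306-110337474, plus strand), the catalytic subunit of the leading-strand polymerase epsilon, read 48.2, 49.2 and 50.7 FPKM in control, where the libraries were almost equal, and 23.6, 29.6 and 18.4 FPKM in H3.3-KD (log2 fold change -1.04 ± 0.27 (SE), adjusted p = 0.0142). In MFN1-KD *Pole* read 73.0, 56.2 and 43.7 FPKM, which overlaps the controls. Its partner *Pole2* was not called in H3.3-KD (14.7, 11.6 and 14.3 FPKM across control, 13.7, 12.1 and 8.95 FPKM under H3.3-KD, log2 fold change -0.22, adjusted p = 0.575). *Pole2* was the only one of the 45 genes with all MFN1-KD libraries above all controls, at 20.6, 18.0 and 17.6 FPKM, by a step that did not pass (log2 fold change 0.45, adjusted p = 0.351). Polymerase delta copies the lagging strand. *Pold3*, its subunit with the most transcript, read 90.05, 73.4 and 72.5 FPKM across control, 114, 107 and 146 FPKM under H3.3-KD and 42.8, 62.0 and 53.9 FPKM under MFN1-KD. The libraries of *Pold3* lay above the controls in H3.3-KD and below them in MFN1-KD, and neither difference passed (adjusted p = 0.0646 and 0.175). *Pold1*, the catalytic subunit, and *Pold2* were called in neither comparison. MFN1-KD replicate 3 read 0.420 FPKM for *Pold1* and 5.35 FPKM for *Pold2*, far under the other libraries of that group at 11.4 and 19.6 FPKM and at 17.9 and 15.2 FPKM. The call of *Pole* was lost without control replicate 2 (adjusted p = 0.0527) or 3 (0.0538).

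The clamp loader held the largest fall among the 45 genes in H3.3-KD. *Rfc4* (chr16:23113943-23127737, minus strand) encodes a small subunit of RFC, which opens PCNA and places it on primed DNA. It read 107, 114 and 156 FPKM across control and 54.9, 35.8 and 16.6 FPKM under H3.3-KD, 28.5% of the control mean (log2 fold change -1.92 ± 0.39 (SE), adjusted p = 0.00457). All H3.3-KD libraries lay below all controls but differed among themselves, with replicate 3 the lowest. *Rfc4* in MFN1-KD read 94.5, 90.1 and 138 FPKM and overlapped the controls. The other RFC genes were not called, with log2 fold changes from -0.36 (*Rfc1*) to 0.13 (*Rfc5*) under H3.3-KD and between -0.54 (*Rfc5*) and 0.39 (*Rfc3*) under MFN1-KD. *Pcna*, the sliding clamp itself, read 95.02, 110.4 and 91.8 FPKM across control and 71.8, 73.3 and 53.6 FPKM under H3.3-KD, below every control but past no threshold (log2 fold change -0.58, adjusted p = 0.0649). In MFN1-KD *Pcna* read 75.5, 85.0 and 94.3 FPKM, overlapping the controls. The pseudogene *Pcna-ps2*, with which *Pcna* can share reads, was listed at a mean of 49.1 FPKM across control, 20.3 FPKM under H3.3-KD and 57.6 FPKM under MFN1-KD, so the *Pcna* values are uncertain to that extent. *Rfc4* shares 194 exon bases with *Eif4a2* on the opposite strand, which read 170.2 FPKM across control and 302 FPKM under H3.3-KD.

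RPA coats single-stranded DNA at the fork, and its middle subunit fell in MFN1-KD. *Rpa2* (chr4:132768332-132778752, plus strand), the subunit that checkpoint kinases phosphorylate, read 121, 95.2 and 108 FPKM in control and 46.2, 54.3 and 43.4 FPKM in MFN1-KD, 44.3% of the control mean (log2 fold change -1.157 ± 0.21 (SE), adjusted p = 0.0333). The MFN1-KD libraries lay close together and below all controls. In H3.3-KD *Rpa2* read 144, 160.2 and 134 FPKM, above all controls by a step that did not pass (log2 fold change 0.43, adjusted p = 0.135). *Rpa3*, the smallest subunit, read 30.5, 38.8 and 44.9 FPKM across control, 25.8, 19.9 and 25.01 FPKM under H3.3-KD and 39.9, 40.0 and 48.4 FPKM under MFN1-KD, below all controls in H3.3-KD without a call (adjusted p = 0.0639). *Rpa1*, the large subunit that binds DNA, was low in all groups, at 6.28 ± 1.43 FPKM for control, 8.88 ± 2.63 FPKM for H3.3-KD and 6.23 ± 1.83 FPKM for MFN1-KD. The MFN1-KD call of *Rpa2* was lost without control replicate 1 (adjusted p = 0.0687), 2 (0.135) or 3 (0.144), on leaving out H3.3-KD replicate 1 (0.0536) or 2 (0.0626), with only the 6 libraries compared (0.0829), with no filter on low values (0.129) and without the GC trend (0.0658). It was kept without MFN1-KD replicate 3 (0.0409), the library with the fewest detected genes.

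In Okazaki fragment maturation, FEN1 trims the displaced primer flap and LIG1 seals the nick. *Fen1* (chr19:10199132-10204169, minus strand) read 7.72, 5.20 and 4.73 FPKM across control and 20.2, 19.6 and 21.2 FPKM under H3.3-KD, 3.46 times the control mean and without overlap (log2 fold change 1.66 ± 0.31 (SE), adjusted p = 0.00288). *Lig1* read 16.5, 10.5 and 13.6 FPKM across control and 8.13, 7.71 and 4.52 FPKM under H3.3-KD, below all controls and just short of a call (log2 fold change -0.92, adjusted p = 0.051). In MFN1-KD *Fen1* read 4.81, 7.71 and 8.25 FPKM and *Lig1* 8.91, 13.0 and 10.9 FPKM, and both overlapped the controls. *Fen1* shares 130 exon bases with *Tmem258* on the opposite strand (269 FPKM across control, 146 FPKM under H3.3-KD), and its call was lost without the GC trend (adjusted p = 0.0757).

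Fork protection gave the single gene called in both knockdowns. *Tipin* (chr9:64281581-64305424, plus strand) encodes the partner of TIMELESS, which holds helicase and polymerase together at paused forks. It read 433, 534 and 687 FPKM across control, 230.5, 251 and 218 FPKM under H3.3-KD and 261, 223 and 113 FPKM under MFN1-KD. All 6 knockdown libraries lay below all controls, at 42.4% of the control mean in H3.3-KD (log2 fold change -1.21 ± 0.31 (SE), adjusted p = 0.013) and 36.1% in MFN1-KD (log2 fold change -1.52 ± 0.31 (SE), adjusted p = 0.0366). The same control libraries enter both values. *Timeless* read 28.1, 32.6 and 21.6 FPKM across control, 19.1, 20.9 and 20.4 FPKM under H3.3-KD and 45.7, 11.5 and 39.0 FPKM under MFN1-KD, with no call in either (log2 fold changes -0.41 and 0.03). The H3.3-KD call of *Tipin* was lost without control replicate 3 (adjusted p = 0.0649), its highest control. The MFN1-KD call was lost without control replicate 1 (0.0687), 2 (0.144) or 3 (0.161), on leaving out H3.3-KD replicate 1 (0.0572) or 2 (0.0656), with only the 6 libraries compared (0.0898) and with no filter on low values (0.138), and was kept without MFN1-KD replicate 3 (0.0393).

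**Figure D4:**
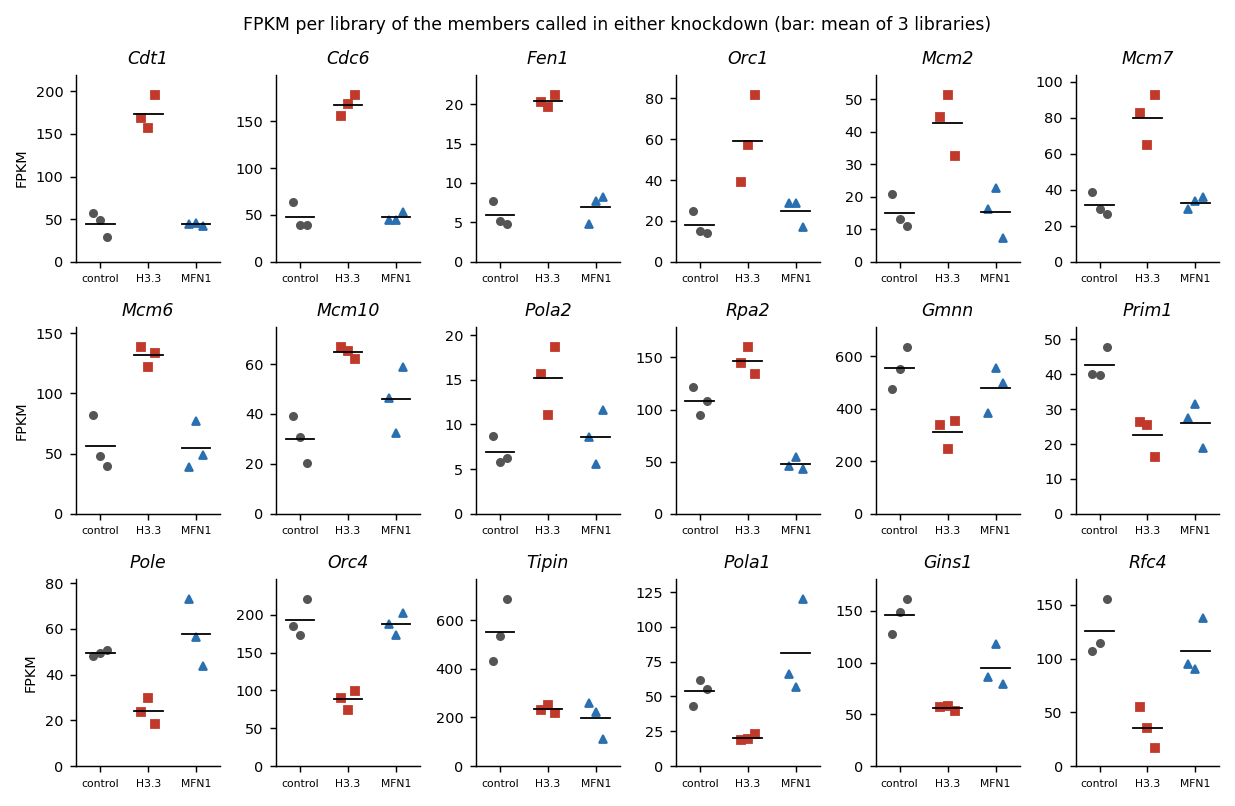
FPKM in each of the 9 libraries for the 18 replication genes called in either knockdown, in panels ordered from the largest rise to the largest fall in H3.3-KD, on linear axes from 0 with bars for the means of 3 libraries. *Rpa2* and *Tipin* are the genes called lower in MFN1-KD, and *Tipin* is low in both knockdowns.

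Whether the knockdowns differ from each other was tested directly, as H3.3-KD minus MFN1-KD, a difference in which the controls cancel. Of the 45 genes, 11 were higher in H3.3-KD than in MFN1-KD (24.4%, against 27.6% of all genes tested) and 7 were lower (15.6%, against 11%). With median-ratio scaling these counts were 10 and 10, and over all genes they went from 3591 higher and 1437 lower to 2673 and 2178. Of the 17 genes called in H3.3-KD, 13 also passed here. They were *Cdc6*, *Cdt1*, *Fen1*, *Mcm2*, *Mcm6*, *Mcm7* and *Orc1*, all higher, and *Gins1*, *Gmnn*, *Orc4*, *Pola1*, *Pole* and *Rfc4*, all lower. The knockdown libraries by which genes were called against control also enter this difference, which favours their passing again. The share over all genes called in H3.3-KD is not given here. For *Cdt1* the log2 difference was 1.94 ± 0.27 (SE, adjusted p = 0.000432), for *Cdc6* 1.81 ± 0.24 (0.000387) and for *Pola1* -1.88 ± 0.30 (0.001). *Mcm10*, *Pola2*, *Prim1* and *Tipin*, the other genes called in H3.3-KD, were not shown to differ between the knockdowns, with adjusted p from 0.099 (*Pola2*) to 0.63 (*Prim1*). *Rpa2*, called in MFN1-KD, differed with the smallest adjusted p of the 45 (log2 difference 1.59 ± 0.21, adjusted p = 0.000304). Another 4 genes passed here and in neither comparison with control. *Cdc45* (1.90, 0.00112), *Pold3* (1.197, 0.00272) and *Prim2* (1.09, 0.00972) were higher in H3.3-KD, as log2 difference and adjusted p, and *Rpa3* was lower (-0.84, 0.0211). In these 4 the MFN1-KD and H3.3-KD libraries did not overlap, and for *Cdc45* and *Pold3* the controls lay between the knockdowns. Calls that ended with 1 library left out were those of *Mcm2* without H3.3-KD replicate 2 (adjusted p = 0.0549), *Orc1* without H3.3-KD replicate 2 (0.0628) or 3 (0.0817) or MFN1-KD replicate 3 (0.062), *Rpa3* without H3.3-KD replicate 2 (0.0815), and *Gins1* without H3.3-KD replicate 1 (0.0558), 2 (0.0577) or 3 (0.0557) or MFN1-KD replicate 2 (0.0734). The call of *Gmnn* ended without control replicate 1 (0.0538), 2 (0.075) or 3 (0.0607), H3.3-KD replicate 1 (0.0701) or 2 (0.175), or MFN1-KD replicate 2 (0.133) or 3 (0.0839). Without H3.3-KD replicate 2 the count of lower genes fell to 4, and over all genes to 1081. With median-ratio and upper-quartile scaling the call of *Orc1* ended (0.0726 and 0.108), with the latter also that of *Prim2* (0.0605), and with no filter on low values those of *Orc1* (0.0645), *Gmnn* (0.105) and *Gins1* (0.0536). A fit of only the 6 libraries compared ended those of *Gmnn* (0.0864) and *Gins1* (0.0575).

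The base composition of the transcripts moved with these values. The median GC content of the 9 genes that rose in H3.3-KD was 50.7%, and that of the 8 that fell was 46.1%, beside 48.4% for the 28 not called and 49.7% over the 12776 genes tested with an annotated transcript. The log2 fold change of the 45 genes in H3.3-KD had a Spearman's rho with GC content of 0.389, and that of all genes one of 0.357. The points share the same 6 libraries and genes are not replicates, so no p is attached. In MFN1-KD rho was 0.0303 across the 45 genes and -0.226 across all genes. Removing from each library its trend over GC content and transcript length kept 12 of the 17 calls in H3.3-KD. Over all genes the calls went from 2841 higher and 1187 lower to 1498 (11.7%) and 1531 (12%). The rises of *Orc1* (log2 fold change 1.75), *Cdc6* (1.29), *Cdt1* (1.21), *Mcm7* (1.06) and *Mcm6* (0.86) and the falls of *Rfc4* (-1.80), *Pole* (-1.60), *Pola1* (-1.43), *Gins1* (-1.28), *Prim1* (-1.04), *Tipin* (-1.005) and *Gmnn* (-0.96) were kept. *Mcm2* (0.79), *Mcm10* (0.74), *Fen1* (0.77) and *Pola2* (0.18) were no longer called higher, with adjusted p of 0.0966, 0.132, 0.0757 and 0.774, nor was *Orc4* (-0.62, 0.0867) called lower. *Lig1* (-1.81, adjusted p = 0.00305) and *Gins4* (-0.88, adjusted p = 0.0177) were then called lower. In the difference between the knockdowns, the calls over all genes went from 3591 higher and 1437 lower to 1772 and 1790. Of the 18 calls of replication genes there, 12 were kept. Those of *Mcm2* (adjusted p = 0.33), *Mcm7* (0.0794), *Orc4* (0.384), *Cdt1* (0.055) and *Fen1* (0.243) were lost, and *Rpa3* turned from -0.84 to 0.08 (adjusted p = 0.867). Whether the trend comes from the libraries or from the embryos was not tested.

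**Figure D5:**
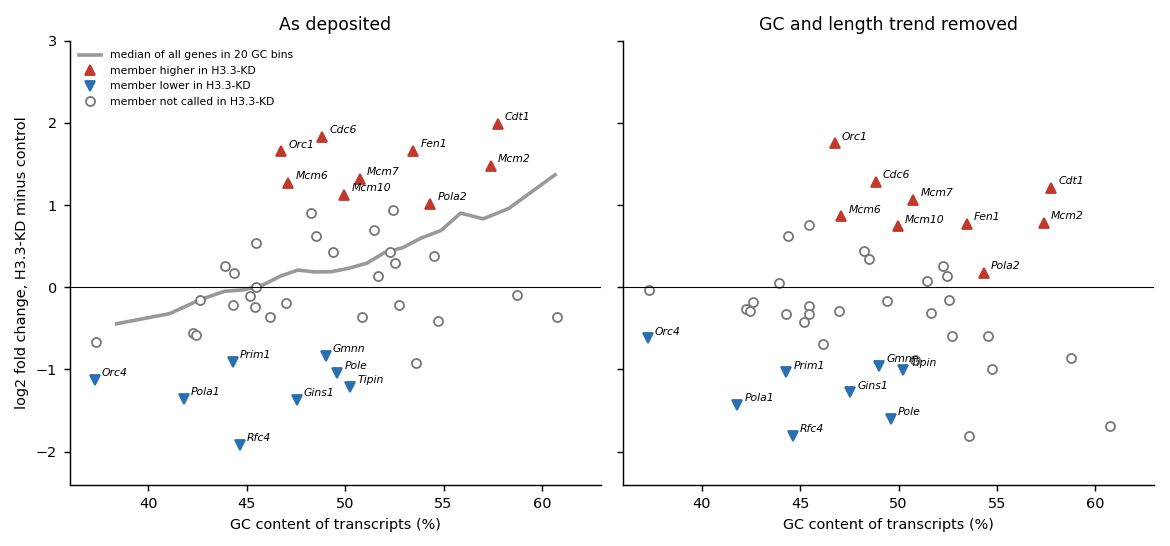
Log2 fold change in H3.3-KD minus control against the GC content of the transcripts in percent for the 45 replication genes, as deposited on the left with the median of all genes in 20 GC bins as a line, and after removal of each library's GC and length trend on the right. Upward triangles mark genes called higher and downward triangles genes called lower as deposited, and *Pola2* moves closest to 0 of the called genes on the right.

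Read beside the promoter words, 5 of the 9 genes that rose in H3.3-KD had a window with an E2F word, *Cdc6*, *Cdt1*, *Orc1*, *Mcm6* and *Mcm7*, and 1 of the 4 that fell and have a window had one, *Pola1*. All 36 replication genes with a window gave 15 of 36, so both shares rest on few genes and no test was made. In the *Cdt1* window the word lies in the last bases, after the start that RefSeq annotates, and in those of *Cdc6*, *Orc1* and *Pola1* it lies before the RefSeq start. The gene starts given from GENCODE lie upstream of the words of *Cdc6* and *Orc1*.

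The genes around the replication machinery were counted in 5 lists, to be read against the shares of all genes given above for each comparison. Except for *Tk1*, how the calls in these lists depend on the processing is not given. H3.3-KD had 4 higher and 3 lower of 26 accessory factors tested, and 0 were called in MFN1-KD. *Chtf8*, of the alternative clamp loader for cohesion, rose from 1.67, 2.82 and 4.70 FPKM across control to 14.8, 14.8 and 28.6 FPKM under H3.3-KD (log2 fold change 2.33 ± 0.43 SE, adjusted p = 0.003). *Rif1*, a regulator of origin timing, had the smallest p of that list in MFN1-KD without passing (log2 fold change 0.79 ± 0.23, adjusted p = 0.0839). Of 12 genes that supply deoxynucleotides, 1 was higher and 3 were lower in H3.3-KD, and 1 was lower in MFN1-KD. *Nme1*, a nucleoside diphosphate kinase, fell from 444, 439 and 403 FPKM across control to 204, 199.6 and 205 FPKM under H3.3-KD (log2 fold change -1.08 ± 0.22, adjusted p = 0.0051), where the libraries were almost equal within each group. *Tk1*, thymidine kinase, fell in MFN1-KD from 128, 142 and 137 FPKM to 50.4, 39.6 and 13.8 FPKM (log2 fold change -2.12 ± 0.39, adjusted p = 0.0336). Its call was lost without control replicate 2 or 3 and in a fit of only the 6 libraries compared, where 0 of all genes were called. Whether it held under the other settings is not given. In H3.3-KD *Tk1* read 244, 177 and 212 FPKM, above every control.

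Of 9 E2F and RB genes tested, 4 were higher in H3.3-KD and 0 were called in MFN1-KD, while *E2f2*, *E2f3*, *E2f8* and *Rbl2* were under the filter. *E2f1*, an activator of S phase genes, rose from 2.75, 2.22 and 1.82 FPKM across control to 10.5, 14.3 and 19.1 FPKM under H3.3-KD (log2 fold change 2.23 ± 0.34, adjusted p = 0.000981), and it read 1.19, 1.19 and 2.12 FPKM in MFN1-KD. *E2f6*, a repressor of the family, had the smallest p of the list in MFN1-KD without passing (log2 fold change 0.77 ± 0.34, adjusted p = 0.206). Of 9 genes of the replication checkpoint, 1 was higher and 1 lower in H3.3-KD. *Atr*, its apical kinase, fell from 4.43, 3.56 and 3.13 FPKM to 1.36, 1.27 and 1.85 FPKM (log2 fold change -0.91 ± 0.31, adjusted p = 0.0444), and *Rad1*, of the checkpoint clamp, did not pass in MFN1-KD (log2 fold change -1.10 ± 0.31, adjusted p = 0.0761). Of 9 genes for the turnover of CDT1 and other licensing proteins, 3 were higher in H3.3-KD and 0 were called in MFN1-KD. *Fzr1*, the activator of the APC/C that marks geminin for destruction, rose from 1.68, 1.32 and 1.94 FPKM to 11.8, 9.82 and 8.01 FPKM in H3.3-KD (log2 fold change 2.03 ± 0.39, adjusted p = 0.00366). Turnover of geminin protein was not measured. *Ube2c*, the ubiquitin-conjugating enzyme of the APC/C, did not pass in MFN1-KD (log2 fold change -0.83 ± 0.26, adjusted p = 0.0932).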

How the data were processed

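RNA of pooled 8-cell embryos was sequenced in 9 libraries, 3 per group. Per the labels and the study's methods, the authors trimmed reads with cutadapt 1.16 and aligned them with STAR to mm10. FPKM per gene were deposited, rounded to 2 decimals. The program that computed them, its annotation and its strand setting are not given in the sources used here, and read depth is unknown.

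Genes averaging 1 FPKM or more across the 9 libraries were kept, and log2(FPKM + 1) of all libraries was fitted in 1 model in limma 3.58.1 (R 4.3.3) with a mean-variance trend and robust moderation. P-values were two-sided, and the Benjamini-Hochberg adjustment ran over every gene tested. The fit was also run on simulated data with independent normal noise around the control means. Those data hold no GC trend and no library with few detected genes, so the fit was not tried under such conditions. Partner genes were compared by the log2 ratio within a library with exact permutation tests. Positions, GC content and transcript length come from GENCODE M21 (GRCm38), and promoters from RefSeq (GRCm38.p6), the first window being printed for genes with more than 1.

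The replication genes and the related lists were chosen with earlier results of these data known. Named were the genes called in either knockdown and the most abundant gene of each role in control, and per related list the gene with the smallest p in each knockdown. Other genes with values per library were named after their values were seen, mostly because their groups did not overlap. Alternatives were the replicate number as a block, a pseudocount of 0.1, median-ratio or upper-quartile scaling, library weights, a filter at 10 FPKM or none, a fit to the 6 libraries compared, splines with 5 degrees of freedom to take out what GC content and transcript length predict in a library, and each library left out in turn.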

Additional observations from a re-analysis of the deposited data

How the results depend on the processing

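Of 666 values of single genes under the 18 alternatives, 579 were still called, and 1 changed sign, that of *Rpa3* in H3.3-KD minus MFN1-KD, which came to 0.08 with the GC and length trend taken out. In H3.3-KD against control, 9 replication genes were higher and 8 lower as reported. Median-ratio scaling gave 13 lower, with 5 upregulated at the threshold of the study, and upper-quartile scaling gave 14 lower, with 5 upregulated and 11 downregulated at that threshold. Library weights gave 14 higher (36.4% of all genes were). Removal of the GC and length trend gave 5 higher (11.7% of all genes were), with 4 upregulated at the threshold of the study. With 1 library left out, the counts ran from 5 to 11 higher and from 4 to 11 lower in H3.3-KD, from 0 to 3 lower in MFN1-KD, and from 4 to 7 lower in H3.3-KD minus MFN1-KD. Over all genes the shares then ran from 13.6% to 26.4% higher and from 5.14% to 12.5% lower in H3.3-KD. The lower shares of all genes ran from 0% to 3.97% in MFN1-KD and from 8.31% to 12.2% in H3.3-KD minus MFN1-KD. The 2 genes lower in MFN1-KD went to 0 with no filter on low values and with only the 6 libraries compared. With a fit on 6 libraries, fewer samples set the spread, and the cause of the other changes was not tested.

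With the replicate number as a replicate block, H3.3-KD had 10 genes higher and 8 lower, 0 were called in MFN1-KD (adjusted p = 0.0505 for *Rpa2* and 0.0516 for *Tipin*, limma), and H3.3-KD minus MFN1-KD had 12 higher and 6 lower, with *Gmnn* no longer called (adjusted p = 0.0601). Of 9 pairs of libraries with the same number, 2 had deviations from their group means correlated above 0.1. The 9 ran from -0.0526 to 0.158, and pairs with different numbers from -0.116 to 0.072. Whether libraries of one number share a batch was not tested, and the reported fit used no pairing. Depth is unknown, so no limit of detection can be given for genes at a few FPKM, such as *Gins2* and *Fen1*.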

Other observations

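The spread between subunits of one complex also varied within groups. The highest over the lowest MCM transcript in a library was 3.93, 4.16 and 3.80 in control, 4.34, 4.22 and 8.19 in H3.3-KD and 2.59, 3.73 and 8.87 in MFN1-KD. For the ORC genes this ratio was 14.6, 18.0 and 18.0 in control, 14.5, 15.9 and 45.5 in H3.3-KD and 42.5, 19.2 and 82.9 in MFN1-KD. In both complexes replicate 3 of each knockdown held the widest spread of its group. MFN1-KD replicate 3 is the library with the fewest genes above 0 FPKM, and H3.3-KD replicate 3 is not set apart in that number.

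The exons of 17 replication genes share bases with another gene. For *Orc2* these are 1150 bases of *Nif3l1* on the opposite strand, which read 62.8 FPKM in control, 60.5 FPKM in H3.3-KD and 65.0 FPKM in MFN1-KD, and for *Cdc45* they are 209 bases of *Ufd1*, at 127, 98.5 and 90.3 FPKM. The levels of such genes cannot be told apart from those of their neighbours where reads fall on the shared bases and strand was not used. For *Rfc5* the shared bases number 499 with *Wsb2*, which read 4.197 FPKM in control, 17.5 FPKM in H3.3-KD and 8.53 FPKM in MFN1-KD.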
